A study of Ovis aries with 36 samples.

Results

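The 19 sheep genes described here each had at least 1 ram whose level lay below 25% of the tissue median in all 3 tissues of the study, which are pineal gland, pars tuberalis and hypothalamus. They were chosen by those same levels out of 26478 gene IDs, expressed as counts per 1000000 counts of the library (CPM). A gene was eligible if its median over 12 rams was at least 5 and below 1000 CPM in each tissue and if its highest tissue median was more than 15% above its lowest and below 4 times it. It was chosen if the same ram stood below 25% of the median, or above 4 times it, in all 3 tissues. Of 8664 eligible genes 19 met this, which is 0.219%, and all 19 were low. The levels by ram are what chose the genes, so they are given as a description with no test.

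Messenger RNA was sequenced from 12 adult rams of the Rasa Aragonesa breed, of which rams 1 to 6 showed sexual activity (active) and rams 7 to 12 did not (inactive). Every ram gave 1 library of each tissue, so the 36 libraries form 6 groups of 6, and the 3 libraries of a ram come from the same animal. The labels give no treatment and no engineered allele. The series was made to find genes that differ with sexual behaviour, with state as its first factor and tissue as its second.

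Melatonin is released by the pineal gland in darkness. Dense melatonin receptors are found in the pars tuberalis of the pituitary, which relays day length to the reproductive axis, and the hypothalamus holds the neurons that release gonadotropin-releasing hormone. The deposited counts carry Ensembl sheep IDs without symbols, and 0 of the IDs were found in the RefSeq gene table used here, so no gene is named and none is given a function. In bulk tissue, fewer cells that express a gene and less RNA per cell cannot be told apart.

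Depth in units of 1000000 counts was 19.3 to 44.3 in the hypothalamus, 22.6 to 35.4 in the pars tuberalis and 25.2 to 73.0 in the pineal gland. No symbols were at hand to check the labelled tissues against known markers, so each library was checked with genes that these libraries restrict to 1 tissue. Genes restricted to a library's own tissue stood at no less than 57.5% of that tissue's median in all 36 libraries. Genes restricted to the pars tuberalis stood at 15.6% in the hypothalamus library of ram 4 and at 1.78% in the next hypothalamus library. Genes restricted to the hypothalamus stood at 9.14% in the pineal library of ram 10 and at 1.54% in the next pineal library. Without both libraries the rule found 18 genes, of which 17 were among the 19. In the pars tuberalis library of ram 7, 136 eligible genes lay below 25% of the median, against 0 to 15 in the other 11 pars tuberalis libraries.

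A level below 25% of the median occurred in at least 1 ram for 89 eligible genes of the hypothalamus, 171 of the pars tuberalis and 32 of the pineal gland, which makes 243 genes in all. For 218 of these no ram was low in more than 1 tissue, for 6 a ram was low in 2 tissues, and for the 19 a ram was low in all 3. Much of this came from the pars tuberalis library of ram 7, without which the counts were 38 genes for the pars tuberalis and 113 in all. Of those 113, no ram was low in more than 1 tissue for 88, a ram was low in 2 tissues for 6 and in all 3 for 19. On the high side, 113 eligible genes had a ram above 4 times the median in some tissue. No ram was high in more than 1 tissue for 109 of them, a ram was high in 2 tissues for 4, and in all 3 tissues for 0.

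The limit of 25% fell in a thinly filled range. For each eligible gene the lowest ram was read in the tissue where it was least low. That value was below 25% of the median for the 19 genes, between 25% and 30% for 3 genes, between 30% and 50% for 21 and at 50% or more for the rest. The last genes inside the limit were ENSOARG00020022130 at 22.9% in ram 6 and ENSOARG00020018812 at 21.0% in ram 3. The first outside it were ENSOARG00020013189 at 25.0% in ram 5 and ENSOARG00020023458 at 27.1% in ram 2. Nearest to the high limit was ENSOARG00020013555, which reached 3.45 times the median in ram 12 in its least high tissue and belongs to the 19 through its low ram 1.

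**Figure D1:**
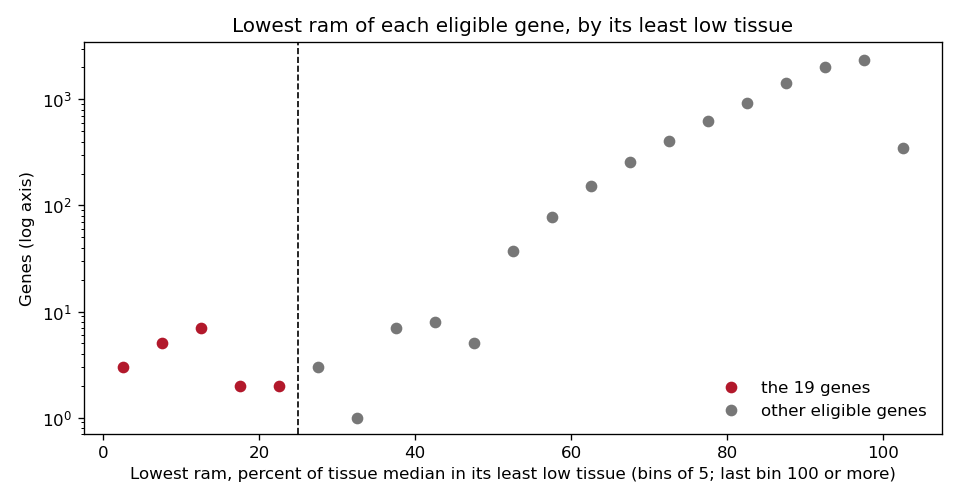
Number of eligible genes (log axis) by the level of their lowest ram in its least low tissue, as percent of the tissue median in bins of 5, with the limit of 25% as a dashed line. The 19 genes lie left of the line, 3 genes lie between 25% and 30%, and most genes stand at 50% or more.

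Low levels were spread over 10 of the 12 rams. Ram 9 was low for 7 of the 19 genes, ram 1 for 5, rams 5, 8 and 10 for 4 each, rams 2, 6 and 7 for 3 each, ram 3 for 2 and ram 11 for 1. Rams 4 and 12 were low for 0. Counted over genes this gives 36 pairs of a gene and a low ram, 17 in active and 19 in inactive rams. Of the 19 genes, 7 were low in active rams alone, 6 in inactive rams alone and 6 in rams of both states. A gene low in a single ram, as 10 of them were, can be low in 1 state only. The 6 genes low in both states are thus among the 9 that were low in several rams. The genes did not share their low rams as a block, since the 19 genes had 16 different sets of low rams.

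**Figure D2:**
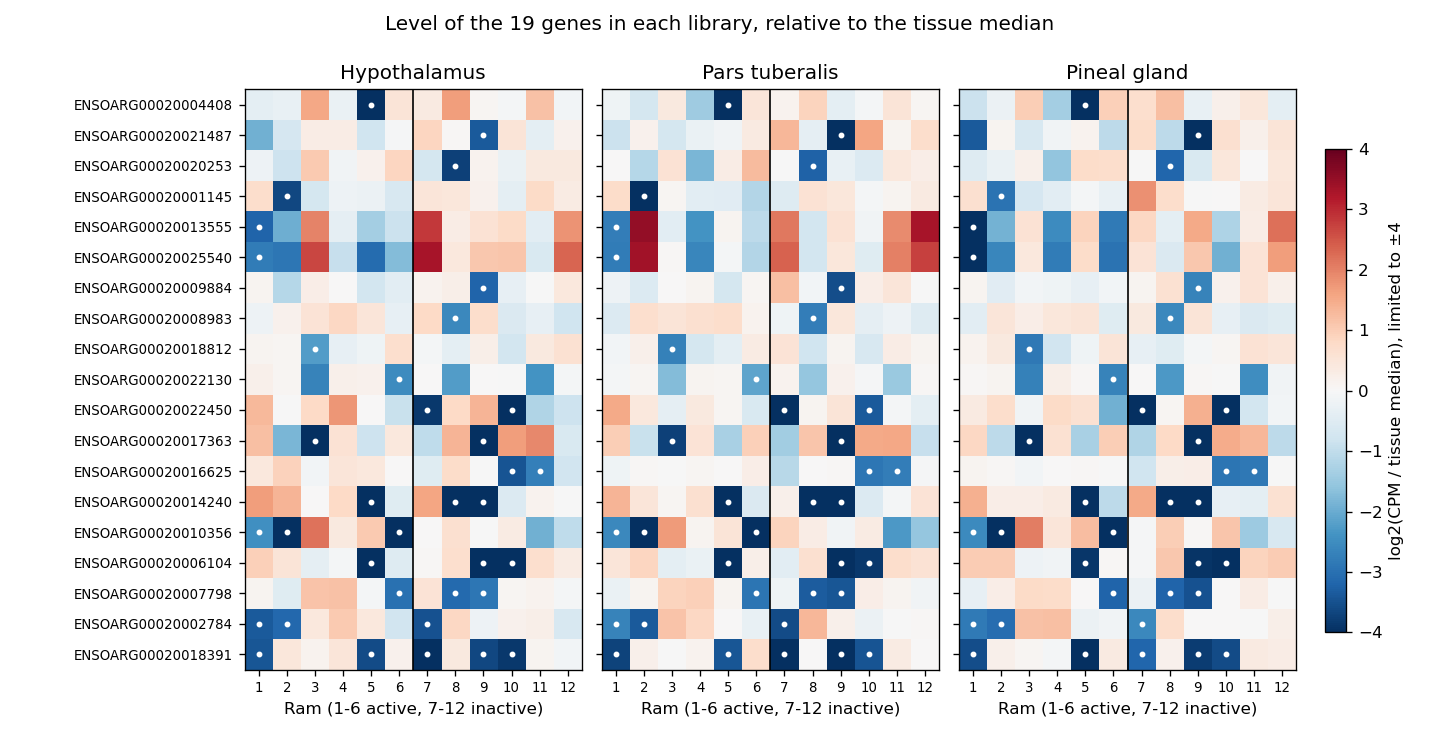
Level of each of the 19 genes (down) in each ram (across), with a panel per tissue, as log2 of CPM over the tissue median, limited to 4 in either direction, with white points on the low rams. The low rams of a gene recur in the 3 tissues and differ from gene to gene, while rams 4 and 12 carry no point.

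In 10 genes a single ram was low, in 3 genes 2 rams, in 5 genes 3 rams, and in 1 gene 5 rams. The low level had a median of 8.41% of the tissue median over the 108 low libraries and ran from 0.123% to 22.9%. By tissue its median was 8.23% for the hypothalamus, 8.49% for the pars tuberalis and 7.86% for the pineal gland. Of the low libraries 33 were below 5%, 61 between 5% and 15%, and 14 above. Low libraries held 1 to 968 counts of the gene, with a median of 66, so the lowest values rest on a few counts.

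ENSOARG00020004408 had the largest shift of the genes low in a single ram. In ram 5, an active ram, the gene had 2 counts in the hypothalamus, 8 counts in the pars tuberalis and 1 count in the pineal gland, or 0.0535, 0.249 and 0.0392 CPM. The other 11 rams had 28.2 to 116 CPM in the hypothalamus (median 38.8), 26.3 to 129.6 in the pars tuberalis (median 74.2) and 12.5 to 74.1 in the pineal gland (median 36.7). Ram 5 thus stood at 0.146%, 0.352% and 0.123% of the tissue medians, and no other ram overlapped it. Exact 95% Poisson intervals of the percent, for counting error only, were 0.0177% to 0.527% for the 2 counts in the hypothalamus and 0.00311% to 0.685% for the 1 count in the pineal gland. Among the other rams the gene was highest in ram 8 in all 3 tissues, at 116, 129.6 and 74.1 CPM, and high in ram 3 too, at 107, 92.8 and 62.7 CPM.

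ENSOARG00020014240 had the largest shift of the genes low in several rams. It stood at 0.588, 0.265 and 0.478 CPM in the hypothalamus of rams 5, 8 and 9, at 0.622, 0.443 and 0.314 CPM in their pars tuberalis and at 0.432, 0.223 and 0.238 CPM in their pineal gland. The other 9 rams had 14.3 to 66.2, 16.4 to 62.6 and 7.09 to 41.2 CPM in the same order of tissues. On the mean of the 3 tissues the lowest of those 9 rams was 21.6 times the highest of the 3 low rams. The low rams belong to both states, and every low library held between 1.27% and 2.97% of its tissue median. Both ENSOARG00020004408 and ENSOARG00020014240 were below 5% in every low library, which none of the other 17 was.

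ENSOARG00020010356 showed more than 2 levels. Rams 2 and 6 had 0.102 and 0.208 CPM in their hypothalamus, 0.33 and 0.197 in their pars tuberalis and 0.191 and 0.265 in the pineal gland. Ram 1 was also low by the rule but stood higher, at 2.15, 2.91 and 1.55 CPM. Rams 11 and 12 followed at 3.16 and 5.82 CPM in their hypothalamus, 3.56 and 5.96 in their pars tuberalis and 3.25 and 5.8 in the pineal gland. At the other end ram 3 was highest in all 3 tissues, at 53.0, 57.0 and 37.2 CPM, where the tissue medians were 11.9, 17.3 and 8.96 CPM. These rams kept the same order from tissue to tissue, except that rams 2 and 6 changed places in the pars tuberalis. The order over all 12 rams was not tested.

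A graded pattern was also present in ENSOARG00020017363. The low rams 3 and 9 had 0.369 and 0.352 CPM in their hypothalamus, 0.701 and 0.59 in their pars tuberalis and 0.322 and 0.277 in the pineal gland. Rams 2, 5, 7 and 12 lay between 2.77 and 6.42 CPM over the 3 tissues. Rams 1, 4, 6, 8, 10 and 11 lay between 10.8 and 37.2 CPM, and ram 11 or ram 10 was the highest in each tissue. These 3 ranges did not overlap in any tissue.

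ENSOARG00020018391 had the most low rams and split into 2 levels. Rams 1, 5, 7, 9 and 10 had 7.01, 6.31, 4.72, 6.03 and 5.22 CPM in their hypothalamus, 17.8, 21.6, 7.67, 14.8 and 21.3 in their pars tuberalis and 6.65, 4.75, 8.7, 5.7 and 6.63 in the pineal gland. The other 7 rams had 69.2 to 105.1 CPM in the hypothalamus, 232 to 376 in the pars tuberalis and 73.9 to 102 in the pineal gland. On the mean of the 3 tissues those 7 rams differed from each other by no more than 1.26 times, while the lowest of them exceeded the highest low ram 12.4 times. For the eligible genes the median range on the mean of the 3 tissues was 1.56 times, over all 12 rams with none set aside. The range of 1.26 times covers the 7 rams left after the low ones were set aside, so this is not a like comparison.

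A split of the same form was seen in ENSOARG00020006104 and ENSOARG00020007798. ENSOARG00020006104 had 2.24 to 3.4 CPM in the hypothalamus of rams 5, 9 and 10, against 44.5 to 122 CPM in the other 9 rams. Its pars tuberalis values were 4.36 to 6.93 against 75.5 to 181 CPM, and its pineal values 2.14 to 2.28 against 29.7 to 71.7 CPM. ENSOARG00020007798 had 13.7 to 16.0 CPM in the hypothalamus of rams 6, 8 and 9, against 85.6 to 269.9 CPM in the other 9, and 22.8 to 31.8 against 203 to 475 CPM in the pars tuberalis. In the pineal gland it had 7.65 to 9.44 CPM in the low rams, against 69.2 to 147 CPM. Rams 3 and 4 were the 2 highest rams of ENSOARG00020007798 in each tissue, at 262 and 269.9, 452 and 475, and 147 and 142 CPM.

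ENSOARG00020022130 met the rule in ram 6 alone but was low in 4 rams. Rams 3, 6, 8 and 11 had 3.46, 3.9, 4.77 and 4.25 CPM in their hypothalamus, 10.4, 7.95, 11.7 and 12.4 in their pars tuberalis and 3.96, 4.07, 5.35 and 4.66 in the pineal gland. The other 8 rams had 21.1 to 25.6, 32.8 to 38.6 and 23.4 to 30.4 CPM. In the pars tuberalis rams 3, 8 and 11 stood at 30.0%, 33.9% and 35.9% of the median of 34.6 CPM, which kept them outside the rule. The 4 rams were apart from the other 8 in each tissue, and the gene had the smallest spread between the tissues of a ram of the 19, with a median SD of 0.0862 on the log2 scale.

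ENSOARG00020002784 and ENSOARG00020016625 were low in 3 and in 2 rams. ENSOARG00020002784 had 0.675 to 0.871 CPM in the hypothalamus of rams 1, 2 and 7, against 4.52 to 15.9 CPM in the others, 0.67 to 1.24 against 6.44 to 20.2 CPM in the pars tuberalis and 1.8 to 2.49 against 12.7 to 34.1 CPM in the pineal gland. ENSOARG00020016625 had 0.979 and 1.63 CPM in the hypothalamus of rams 10 and 11, 2.04 and 2.22 CPM in their pars tuberalis and 1.83 and 1.91 CPM in their pineal gland. Ram 7 followed in the pars tuberalis and pineal gland, at 6.96 and 7.86 CPM, with the other 9 rams at 13.3 to 18.3 and 12.6 to 16.6 CPM. In the hypothalamus ram 7 had 7.61 CPM and ram 12 had 6.37 CPM, so there this middle level was not ram 7's alone.

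ENSOARG00020022450 was low in rams 7 and 10. It had 0.825 and 0.373 CPM in their hypothalamus, 0.633 and 1.6 in their pars tuberalis and 0.35 and 0.555 in their pineal gland. The other 10 rams ranged from 5.22 to 40.9, 10.8 to 47.0 and 3.09 to 31.5 CPM. Ram 10 was the lower of the 2 in the hypothalamus, and ram 7 in the pars tuberalis and pineal gland.

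**Figure D3:**
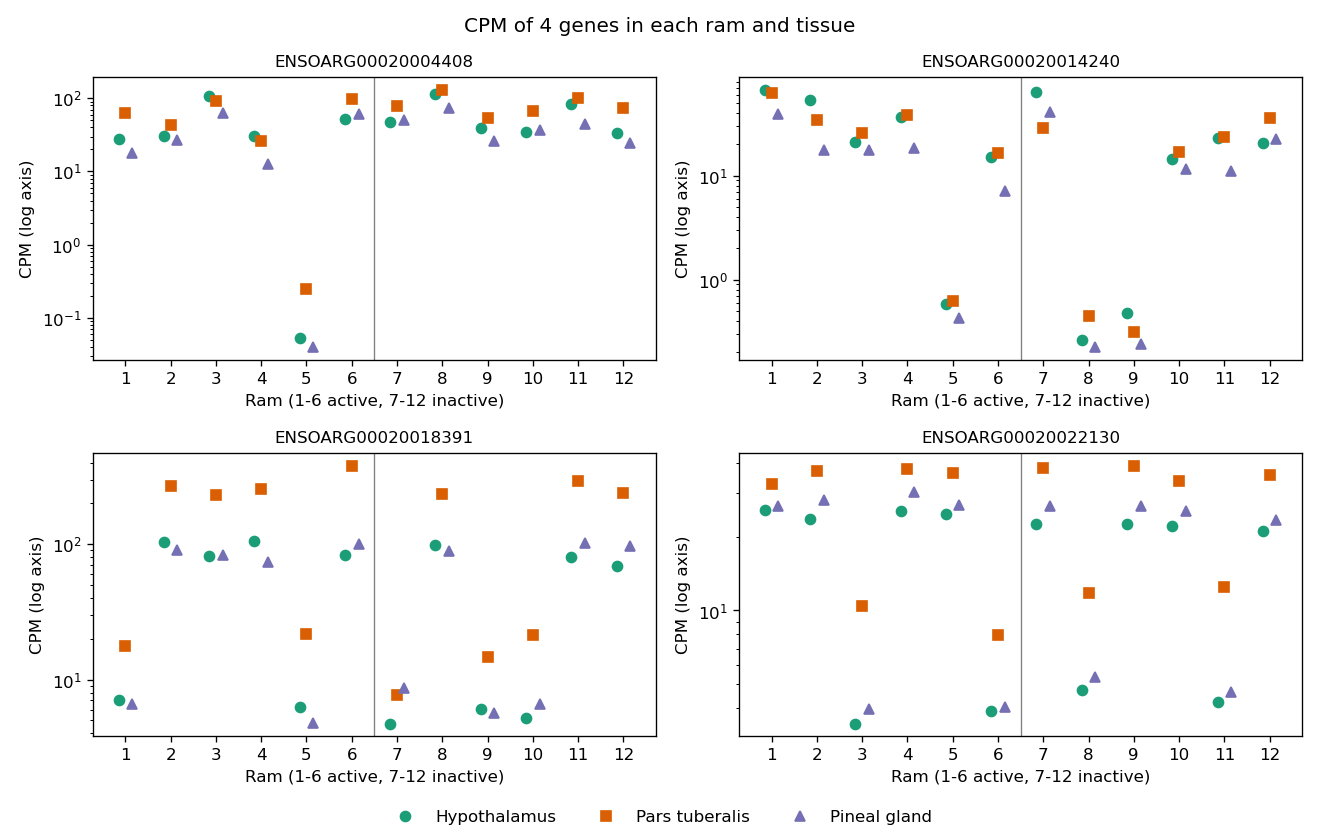
CPM (log axis) of ENSOARG00020004408, ENSOARG00020014240, ENSOARG00020018391 and ENSOARG00020022130 in each ram, with a symbol for each tissue and a line between active and inactive rams. Ram 5 stands alone for the first gene, rams 5, 8 and 9 stand low for the second, 5 rams for the third and rams 3, 6, 8 and 11 for the last, in all 3 tissues.

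The remaining genes were low in a single ram. ENSOARG00020021487 had 2.97 CPM in the hypothalamus of ram 9, 2.24 in its pars tuberalis and 1.31 in its pineal gland, where the other rams had 7.94 to 54.7, 20.3 to 110.2 and 2.85 to 48.7 CPM. Ram 1 was the next lowest in each tissue, and its pineal level of 2.85 CPM lay far below the next of 14.1 CPM in ram 6. In the same order of tissues, ENSOARG00020020253 had 0.618, 1.11 and 2.03 CPM in ram 8, against 4.66 to 17.2, 2.93 to 25.4 and 6.14 to 30.8 CPM. ENSOARG00020001145 had 0.41, 0.257 and 2.18 CPM in ram 2, against 3.14 to 8.65, 3.61 to 13.7 and 10.6 to 60.2 CPM, the last value in ram 7.

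In ENSOARG00020009884, ENSOARG00020008983 and ENSOARG00020018812 the low ram stood below the other 11 in each tissue. ENSOARG00020009884 had 11.1, 15.4 and 11.5 CPM in ram 9, against 46.3 to 137, 110.02 to 413 and 53.0 to 112 CPM in the others. ENSOARG00020008983 had 11.3, 26.0 and 8.0 CPM in ram 8, against 38.9 to 120.2, 121 to 288 and 31.8 to 68.3 CPM. ENSOARG00020018812 had 8.4, 8.26 and 4.95 CPM in ram 3, against 23.8 to 63.5, 30.8 to 78.3 and 21.2 to 54.3 CPM. On the mean of the 3 tissues the other 11 rams of these genes ranged over 2.31, 2.37 and 2.16 times in that order.

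ENSOARG00020013555 and ENSOARG00020025540 were both low in ram 1, at 1.99 and 1.32 CPM in the hypothalamus, 3.41 and 2.31 CPM in the pars tuberalis and 0.699 and 0.685 CPM in the pineal gland. The other rams ranged over 4.84 to 132, 4.44 to 264 and 2.78 to 91.6 CPM for the first and over 1.07 to 89.4, 2.67 to 167 and 2.1 to 52.3 CPM for the second. Ram 2 was near the bottom in the hypothalamus, at 4.84 and 1.23 CPM, and at the top in the pars tuberalis, at 264 and 167 CPM. For ENSOARG00020025540 rams 2 and 5, at 1.23 and 1.07 CPM in the hypothalamus, were below ram 1.

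Both genes differed more between the tissues of a ram than the other 17 did. The SD between the 3 tissues of a ram, after each tissue's median was taken off, had a median over rams of 1.07 for ENSOARG00020013555 and 1.16 for ENSOARG00020025540 on the log2 scale. It ran from 0.0862 to 0.584 for the other 17 genes, and its median was 0.203 over the eligible genes. The highest ram was the same for both genes in each tissue, ram 7 in the hypothalamus at 132 and 89.4 CPM, ram 2 in the pars tuberalis and ram 12 in the pineal gland at 91.6 and 52.3 CPM.

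The low rams lay below every other ram in all 3 tissues for 17 of the 19 genes, the exceptions being ENSOARG00020022130 and ENSOARG00020025540. The low rams were chosen by these levels, so the separation is in part built in. For the 17 genes the lowest other ram exceeded the highest low ram by 1.23 times (ENSOARG00020010356, pars tuberalis) to 527 times (ENSOARG00020004408, hypothalamus). Within a pair of gene and low ram, the percent of the median differed between the highest and the lowest of the 3 tissues by 0.229 to 11.3 percentage points, with a median of 2.95. Of the 19 genes, the pars tuberalis had the highest median for 14, the pineal gland for 4 and the hypothalamus for 1. In percent these are 73.7%, 21.1% and 5.26%, beside 50.7%, 26.9% and 22.5% of the eligible genes. No test was made of that share, since the rule uses the tissue medians.

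Whether the genes also differ among the rams other than the low ram was tested for the 10 genes low in a single ram. For each, the low ram was left out, and an animal term was tested over the 33 libraries of the other 11 rams, with tissue as a covariate, in edgeR (quasi-likelihood) with p-values adjusted over all tested genes after Benjamini and Hochberg. The animal term holds any difference of state as well. The other 11 rams also entered the tissue medians that the rule reads, so the test is not fully separate from the choice of the genes. A gene was called at an adjusted p below 0.05. In these 7 fits, 4.38%, 4.92%, 5.11%, 4.78%, 4.42%, 4.55% and 4.77% of all tested genes were called without rams 1, 2, 3, 5, 6, 8 and 9, in that order of rams. Of the 10 genes 7 were called. The levels of these rams also decided that none of them was low in all 3 tissues. The count is therefore a description and not separate support. The tested genes include many with a median below 5 CPM in some tissue, unlike the 10. The share called among the 8664 eligible genes was not computed.

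ENSOARG00020022130 had the largest statistic, with F = 37.6 and an adjusted p of 3e-09 by edgeR's test, and its low rams 3, 8 and 11 were among the 11 rams tested. In the hypothalamus and pineal gland those rams were themselves below 25% of the median, so its call repeats levels that the rule read. ENSOARG00020004408 followed with F = 16.9 and an adjusted p of 3.64e-06 by edgeR's test without ram 5, and ENSOARG00020008983 with F = 14.1 and an adjusted p of 1.6e-05 without ram 8. The 11 rams of ENSOARG00020004408 ranged over 4.8 times on the mean of the 3 tissues. ENSOARG00020018812, ENSOARG00020021487, ENSOARG00020020253 and ENSOARG00020001145 had adjusted p of 0.0041, 0.00615, 0.00855 and 0.0206 by the same edgeR test. For ENSOARG00020021487 the tested rams included ram 1, whose pineal level of 2.85 CPM was also below 25% of the median of 29.1 CPM. Its call thus rests in part on levels that the rule read.

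ENSOARG00020009884 was not called, at an adjusted p of 0.0556 by edgeR's test, and was called at 0.0453 without the pars tuberalis library of ram 7, in which it had its highest level of 413 CPM. Leaving out that library raised the share of all genes called in the same fit to 6.27%, against 4.77% with it. ENSOARG00020013555 and ENSOARG00020025540 were not called either, with adjusted p of 0.141 and 0.19 by edgeR's test, although their 11 other rams ranged over 18.2 and 20.3 times on the mean of the 3 tissues.

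State, the study's main factor, was then tested on the whole table for active against inactive rams. All 19 genes passed edgeR's filter on low counts. In the hypothalamus 16 of 16773 genes (0.0954%) were called with edgeR, and 0 of the 19. With the 12 hypothalamus libraries fitted alone, edgeR called 0 of 15655 genes. Without the hypothalamus library of ram 4 and the pineal library of ram 10 it called 0 of 16863 in the hypothalamus. With single rams left out the number called there ran from 0, as without ram 4, to 54 without ram 8. In the pars tuberalis, the pineal gland and the counts summed over the 3 tissues of a ram, edgeR called 0 genes (0%) and so 0 of the 19. In these edgeR fits, with all 12 rams, the 19 genes had 0 unadjusted p below 0.05 in each of the 4 comparisons. Fitted on the 12 pineal libraries alone, ENSOARG00020001145 had an unadjusted p of 0.0457 by edgeR's test and was not called. With DESeq2, or with voom and the ram as a random block, 0 of the 19 were called. Of all genes, DESeq2 called 0.836% in the hypothalamus, 0.00597% in the pars tuberalis, 0.119% in the pineal gland and 0.0641% on the sums. In the same order of tissues voom called 0.00596%, 0% and 0%. On the mean of the tissues, which voom tested in place of the sums, it called 0.0119%. Of all genes tested, 9.33% in the hypothalamus, 3.54% in the pars tuberalis, 1.94% in the pineal gland and 4.66% on the sums had an unadjusted p below 0.05 with edgeR.

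With voom more of the 19 had an unadjusted p below 0.05, namely 4 in the hypothalamus (21.1%), 3 in the pars tuberalis (15.8%), 4 in the pineal gland (21.1%) and 8 on the mean of the tissues (42.1%). The share of all genes was 7.99%, 2.53%, 1.72% and 4.94% in the same order. That fit uses 1 correlation between the libraries of a ram for every gene, estimated at 0.0968, while the 19 were chosen for rams that are low in all 3 libraries; the part of this in those counts was not tested. DESeq2 gave 1 such p among the 19, in the pineal gland (5.26%, beside 2.28% of all genes), and 0 elsewhere, beside 10.2% of all genes in the hypothalamus, 3.98% for the pars tuberalis and 5.59% for the sums.

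The lowest unadjusted p of the 19 in the hypothalamus belonged to ENSOARG00020016625, at 14.1 ± 3.64 CPM in active and 7.52 ± 6.26 CPM in inactive rams (SD, n = 6 each). Its log2 difference was 0.86 (SE 0.53), with an adjusted p of 0.688 by edgeR's test. In the pars tuberalis it was ENSOARG00020008983, at 237 ± 65.8 CPM in active and 141 ± 70.4 CPM in inactive rams (log2 difference 0.71, SE 0.44, adjusted p = 0.967 by edgeR's test). In the pineal gland it was ENSOARG00020001145, at 13.7 ± 8.01 CPM in active and 27.9 ± 16.3 CPM in inactive rams (log2 difference -1.01, SE 0.52, adjusted p = 1 by edgeR's test). With single rams left out, the difference of ENSOARG00020001145 ran from -1.32 without ram 1 to -0.65 without ram 7. Without its low ram 2 it was -0.78 (SE 0.32, unadjusted p = 0.0209 by edgeR's test) and was not called. In each of these genes the groups overlapped, and the low rams of the gene lay in the group with the lower mean.

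Fitted differences between states were larger for the 19 genes than for genes at large, with none called. The median absolute log2 difference was 0.49 for the 19 and 0.17 for all tested genes in the hypothalamus, then 0.57 and 0.16 for the pars tuberalis, 0.34 and 0.10 for the pineal gland, and 0.58 and 0.12 on the sums. A low ram lies in 1 of the states, so the choice of the genes bears on this size. On the sums the 10 genes low in a single ram had a median absolute log2 difference of 0.59 with all rams and 0.45 without the low ram, and it was smaller without that ram for 7 of the 10. None of the 10 was called without its low ram, in any tissue or on the sums. The tissues share their rams, so a state difference of the same sign in 3 tissues is not 3 separate observations.

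For the genes with the largest and the smallest shifts the state difference on the sums was not called either. ENSOARG00020004408 had a log2 difference of -0.58 (SE 0.76) and ENSOARG00020021487 one of -0.63 (SE 0.54). ENSOARG00020014240 had 0.51 (SE 1.02) and ENSOARG00020010356 had 0.21 (SE 0.99), and the sign of the last turned when ram 3 was left out, at -0.63. Among the smallest shifts, ENSOARG00020016625 had 0.71 (SE 0.48) and ENSOARG00020018812 had -0.24 (SE 0.39). ENSOARG00020002784, at 0.09 (SE 0.69), and ENSOARG00020022130, at 0.03 (SE 0.52), turned sign with several single rams left out. Single rams also moved most of the other values by more than 1.5 times: ENSOARG00020004408 had -0.32 without ram 5, -0.38 without ram 8 and -0.91 without ram 3, and ENSOARG00020018812 had -0.02 without ram 3. ENSOARG00020014240 had 0.16 without ram 1 and 1.04 without ram 7, and ENSOARG00020021487 had -0.41 without ram 7. Without its low ram 9, ENSOARG00020021487 had -0.88 (SE 0.33, unadjusted p = 0.0202 and adjusted p = 0.984 by edgeR's test). Adjusted p in edgeR with all rams was 0.933 or more for these 8 genes. The edgeR test of whether the state difference was equal in the 3 tissues called 0 of 16773 genes (0%) and 0 of the 19, whose lowest unadjusted p was 0.729. That fit has no ram term, so ram differences shared by the 3 tissues count as residual spread and can raise p. The p of 0.729 therefore does not show that the state difference was equal. With the ram as a fixed block, 0 of 16773 genes (0%) and 0 of the 19 were called as well.

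**Figure D4:**
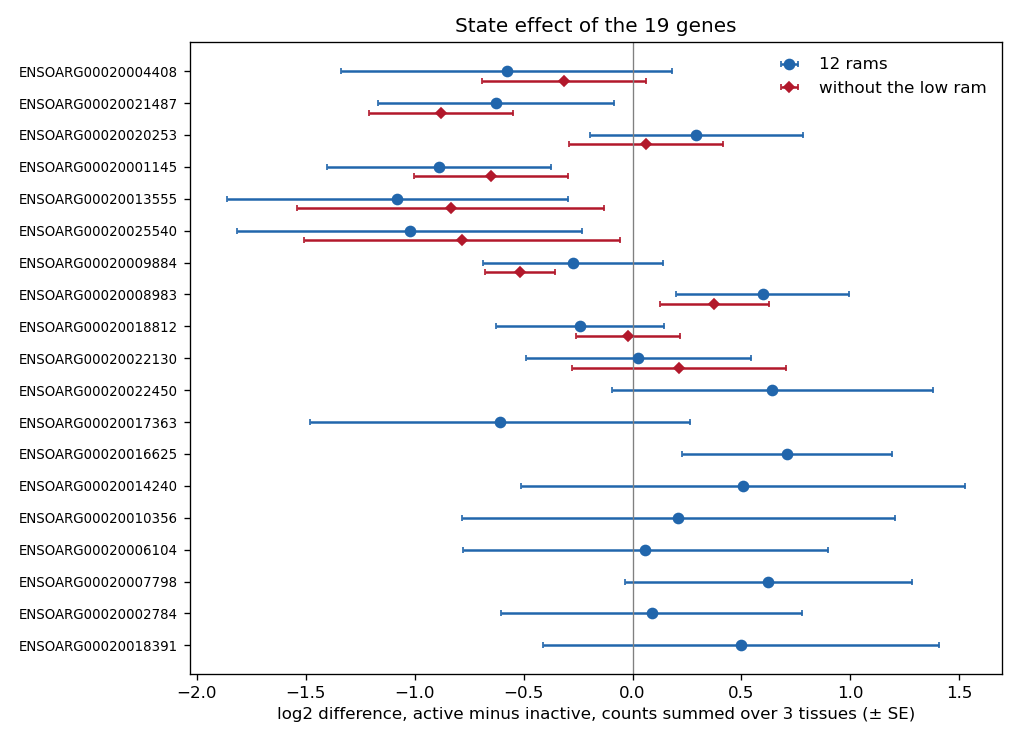
Log2 difference between active and inactive rams (active minus inactive, ± SE) of the 19 genes on counts summed over the 3 tissues of a ram, with all 12 rams (circles) and, for the 10 genes low in a single ram, without that ram (diamonds). Values lie on both sides of 0, from -1.08 to 0.71 with all rams, and none was called.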

How the data were processed

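The authors deposited raw counts per gene, whole numbers that are not normalised, for 26478 IDs in 36 libraries. Per the submitters' processing notes the tools included STAR 2.7.8a and HTSeq; genome build, annotation, strand setting and use of the molecular identifiers were not given in the sources used here. Reads of near-identical or overlapping genes are therefore uncertain, and counting intervals would cover counting error only.

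Members were found from CPM on column totals. The members, lists and tests were chosen with earlier results of these data known. Planned marker lists needed symbols and were not used. The rule for named genes took the 2 largest and 2 smallest shifts, on log2 of count plus 0.5, among genes low in 1 ram (ENSOARG00020004408, ENSOARG00020021487, ENSOARG00020018812, ENSOARG00020022130) and among genes low in several (ENSOARG00020014240, ENSOARG00020010356, ENSOARG00020002784, ENSOARG00020016625). The other IDs are named to account for every member and were chosen after their values were seen.

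Tests used R 4.3.3 and edgeR 4.0.16 with its filter (minimum count 10), TMM scaling and robust quasi-likelihood fits: 1 fit of 36 libraries with a mean per group for state, 1 of 12 summed rams, and 7 of 33 libraries for the animal term. Limma 3.58.1 (voom) and DESeq2 1.42.0 were alternatives. Benjamini-Hochberg adjustment ran over all tested genes. Scripts were tested on simulated data.

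By the labels, the 3 libraries of a ram carry 1 number, so numbers pair the tissues. Over 13401 genes deviations from group means correlated at a median of 0.0412 (hypothalamus and pars tuberalis), 0.154 (hypothalamus and pineal gland) and 0.196 (pars tuberalis and pineal gland). State sets different rams against each other.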

Additional observations from a re-analysis of the deposited data

Results flagged for a closer look

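Among the 114 groups of 6 libraries (19 genes, 3 tissues, 2 states), 8 had a library whose gap to its nearest neighbour exceeded Dixon's 95% critical value as a share of the group's range. Chance gives about 1 group in 20, and the genes were chosen for extreme rams, so these are listed as values only. On the low side there was 1, ENSOARG00020009884 at 11.5 CPM in the pineal gland of inactive ram 9, the ram that chose it. On the high side, ENSOARG00020013555 and ENSOARG00020025540 stood at 72.9 and 58.5 CPM in the hypothalamus of active ram 3 and at 264 and 167 CPM in the pars tuberalis of active ram 2. Also on the high side were ENSOARG00020001145 at 60.2 CPM in the pineal gland of inactive ram 7, ENSOARG00020014240 at 63.1 CPM in the hypothalamus of inactive ram 7 and ENSOARG00020022450 at 47.0 CPM in the pars tuberalis of active ram 1.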

How the results depend on the processing

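The number of genes that met the rule was 19 with TMM scaling (18 of them the same genes), 24 with a limit of 3 times, 16 with 6 times, 20 against the median of the other 11 rams and 15 to 19 when each ram was left out. A gene high in all 3 tissues appeared under some settings, with 5 at a limit of 3 times, 3 against the other 11 rams, 1 with TMM scaling and 2 each without ram 3, 7 or 9. Without limits on tissue ratio and upper level, an alternative added after seeing the data, 21 genes met the rule, 0 of them high. The animal term called 7 of 10 genes with DESeq2 size factors, without a filter and in voom, and 8 without the pars tuberalis library of ram 7, also added later. The share of all genes called ran from 4.39% to 5.14%, 3.41% to 3.86%, 4.96% to 6.95% and 5.19% to 7.83% in these settings, against 4.38% to 5.11% as reported.

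State and its interaction with tissue called 0 of the 19 under every alternative run for them, replicate block included (0 with the ram as a random block in voom, 0 with it as a fixed block for the interaction). In voom with the block, which averages log values over tissues in place of summing counts, the log2 state difference on the sums turned from 0.21 to -1.52 for ENSOARG00020010356 and from 0.09 to -0.42 for ENSOARG00020002784. With each ram left out in turn, it ran from -0.63 to 0.47 for ENSOARG00020010356, from -0.24 to 0.37 for ENSOARG00020002784 and from -0.16 to 0.22 for ENSOARG00020022130. The cause was not tested. The other 8 state differences named kept their sign under every alternative run for them but not their size, with ENSOARG00020018812 at -0.46 to -0.02, ENSOARG00020014240 at 0.16 to 1.28 and ENSOARG00020004408 at -1.91 to -0.32. Over all 11 the adjusted p ran from 0.315 to 1 (edgeR, DESeq2 or voom). Low libraries held a median of 66 counts, and 32 of the 108, in 8 genes, held 20 or fewer, so depth limits the low level most in those; ENSOARG00020004408 had 1 to 8 and ENSOARG00020010356 had 4 to 12 in rams 2 and 6.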

Other observations

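The rule needs a median of at least 5 CPM in each tissue. A gene that is below 5 CPM in most rams and high in a few therefore cannot enter. After the data were seen, the 15807 IDs with a median under 5 CPM in at least 1 tissue were searched for genes with a ram at 5 CPM or more and above 4 times the median in all 3 tissues. There were 25, of which 21 had a median under 5 CPM in all 3 tissues, with 1 such ram in 18 genes, 2 in 5 genes and 3 in 2 genes. For 20 of the 25 the high rams lay above every other ram in all 3 tissues. These values chose the genes and carry no test.

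ENSOARG00020004525 had 49.1 CPM in the hypothalamus of active ram 1, 19.9 in its pars tuberalis and 19.2 in its pineal gland, and at most 2.25, 1.29 and 0.471 CPM in the other 11 rams. ENSOARG00020025749 had 52.5, 72.3 and 60.5 CPM in active ram 6, and at most 10.3, 3.22 and 11.7 CPM in the others. ENSOARG00020024620 had 7.03, 6.63 and 6.55 CPM in inactive ram 12, a ram that was low for 0 of the 19 genes, and at most 0.462, 0.332 and 0.421 CPM in the others. ENSOARG00020002731 was high in rams 2, 9 and 12, at 5.07 to 12.5, 6.92 to 9.51 and 12.6 to 20.4 CPM, with at most 0.6, 0.819 and 1.41 CPM in the other 9 rams. These 4 IDs were picked as examples after their values were seen.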
